A study of Mus musculus with 6 samples.

Results

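The genes described here govern whether a macrophage lives or dies by apoptosis: Mcl1, Bcl2 and Bcl2l1, which restrain the mitochondrial pathway; the inhibitor of apoptosis genes Birc2 and Birc3; Cflar, a brake on caspase-8; and, on the death side, Bcl2l11, Bid, Bak1 and Bax. They were chosen by name, and every probe set (a set of short probes for 1 transcript region) annotated to one of these 10 symbols was taken. This gave 27 of the 22690 probe sets on the array, for 9 of the 10 genes, among 12394 genes named on it; Bax was not analysed here. Of the 27, 24 probe sets for 8 genes exceeded the median of their array on at least 1 array and entered the tests, beside 13135 such probe sets in all. The other 3 are the only Bcl2 probe set, 1 of 4 for Bcl2l1 and 1 of 2 for Birc3, and their signals are given as values.

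Bone marrow-derived macrophages from IκBβ-knockout and wild-type mice, both labelled C57BL/6J, had been grown for 7 days in medium with 30% conditioned supernatant of L929 cells, a fibroblast line that supplies the growth factor for macrophages. The cells were either left unstimulated (0 h) or given 1 µg/ml LPS, the bacterial lipopolysaccharide sensed by Toll-like receptor 4, for 1 h or 5 h, with 1 Mouse Genome 430A 2.0 array for each genotype and time, 6 in all. IκBβ is an inhibitory protein that binds NF-κB, and the labels give no cell type or promoter for the deletion and no number of animals. The values are MAS5 signals, an intensity per probe set on a linear scale as the authors deposited them, and all 6 arrays share a trimmed mean of 499.9, 2% of values being cut at each end. Array medians on this scale were 117, 98.7 and 65.2 in knockout and 113, 105 and 70.7 in wild type, in order of time, so that a choice of scale moves the 5 h arrays most. With 1 array per group no difference within a genotype or a time has a replicate check.

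Nfkbib, the gene for IκBβ, read 30.5, 136 and 56.1 on the knockout arrays, against 477, 3330 and 5007 on the wild-type arrays, each time from 0 h to 5 h, which is the order kept below. The sources used here do not say whether these probes lie in the deleted sequence. The labels give no sex, and sex-linked genes split by genotype: Xist, from the inactive X chromosome, read 5634, 4189 and 2149 in knockout and 52.1, 80.4 and 62.1 in wild type, and Eif2s3y, on the Y chromosome, was under the floor in knockout and read 799, 860 and 570 in wild type. Genotype and sex therefore cannot be told apart. Most macrophage markers were bright, with Adgre1 at 14056 to 14874 in knockout and 15002 to 15720 in wild type, and all 12 listed markers were fitted. Cd163 was dim, at 98.4, 56.2 and 11.7 in knockout and 114, 105 and 1.13 in wild type. The T cell genes Cd3d, Cd3e and Cd3g stayed between 2.62 and 25.6 in knockout and between 2.16 and 41.1 in wild type. Gzmb, from the same list of T and NK cell genes, read 4.02, 37.3 and 70.8 in knockout and 9.46, 17.9 and 44.7 in wild type. Of the B cell genes, Ighm was bright before LPS (3571 in knockout and 3371 in wild type on 1 probe set), while Ms4a1 and Pax5 read at most 20.8 in knockout and 18.3 in wild type.

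Apoptosis through mitochondria begins when BAX and BAK1 open the outer membrane. MCL1, BCL2 and BCL-XL (the main product of Bcl2l1) hold these proteins in check, and BH3-only proteins such as BIM (from Bcl2l11) and BID release them. Death receptors take another route, through caspase-8, which the product of Cflar (cFLIP) restrains and which can cut and so activate BID. The products of Birc2 and Birc3 (cIAP1 and cIAP2) are ubiquitin ligases that sit on the TNF receptor complex and keep it on the side of survival. In macrophages LPS signals through NF-κB, for which several survival genes of this group are known targets.

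The stretches of 250 bases before the annotated start sites of 4 members that stand for 3 time courses, Cflar and Birc3 (higher at both LPS times), Bcl2l11 (high at 1 h only) and Birc2 (higher at 5 h), are shown so that they can be set beside the values. They are RefSeq sequences of build GRCm38.p6, 5′ to 3′ on the strand of the gene, and capitals mark matches to the motifs searched.
Cflar (chr1:58711241-58711490, plus strand): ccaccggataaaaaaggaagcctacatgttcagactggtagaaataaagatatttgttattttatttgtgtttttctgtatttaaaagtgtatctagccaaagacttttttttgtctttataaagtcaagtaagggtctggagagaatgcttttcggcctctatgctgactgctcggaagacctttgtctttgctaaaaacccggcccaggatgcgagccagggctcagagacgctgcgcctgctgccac
Birc3 (chr9:7873171-7873420, minus strand): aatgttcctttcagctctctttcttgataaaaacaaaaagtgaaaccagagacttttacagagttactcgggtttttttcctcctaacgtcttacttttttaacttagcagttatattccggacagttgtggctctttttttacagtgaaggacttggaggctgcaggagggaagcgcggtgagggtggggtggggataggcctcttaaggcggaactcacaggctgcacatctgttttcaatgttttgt
Bcl2l11 (chr2:128125788-128126037, plus strand, the first of its 2 listed starts): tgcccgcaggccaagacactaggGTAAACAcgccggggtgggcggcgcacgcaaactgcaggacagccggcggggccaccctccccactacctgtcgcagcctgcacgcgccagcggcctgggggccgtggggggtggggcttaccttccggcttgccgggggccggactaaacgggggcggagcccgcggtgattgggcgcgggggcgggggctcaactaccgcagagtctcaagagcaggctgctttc
Birc2 (chr9:7837058-7837307, minus strand, the first of its 2 listed starts): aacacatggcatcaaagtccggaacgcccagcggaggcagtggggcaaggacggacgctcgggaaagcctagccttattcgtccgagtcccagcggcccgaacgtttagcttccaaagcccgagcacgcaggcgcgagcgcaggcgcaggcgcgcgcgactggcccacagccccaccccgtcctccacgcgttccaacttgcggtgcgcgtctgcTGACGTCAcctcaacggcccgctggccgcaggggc
Windows of 300 bases, 250 before and 50 after the start, were searched on both strands for a κB core (GGGA and TTCC with 2 bases of any kind between), the κB consensus, FOXO GTAAACA, AP-1 TGANTCA, CRE TGACGTCA, an ISRE core (GAAA repeated after 2 bases of any kind) and the E-box CACGTG. The κB core is contained in the κB consensus. Among the 9 genes with probe sets, the FOXO letters were found for Bcl2l11 (from base -227), the CRE for Birc2 (from base -35), the ISRE core for Cflar (from base 6 after the start) and the κB consensus for 1 of 3 Bcl2l1 starts (from base -242). These motifs occur in 3.65%, 1.79%, 3.44% and 8.46% of all 32851 promoter windows. No window of these 9 genes held the AP-1 letters (7.81% of all windows) or the E-box (7.15%). The κB core, found in 1.47% of all windows, was in none of these members' windows, which says only that those letters are not in these 300 bases.

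After 1 h of LPS several survival genes were higher than before stimulation, and on the death side Bcl2l11 alone was. Of the 24 fitted probe sets, 14 were called higher and 1 lower at a limma adjusted p under 0.05, where 5.31% of all fitted probe sets were called higher and 4.59% lower. The 14 belong to Cflar (4 of 4), Bcl2l11 (5 of 5), Mcl1 (4 of 6) and Birc3 (1 of 1), and the 1 that fell to Bid. The median log2 change was 0.79 over the 24 and -0.17 over all fitted probe sets. Survival genes had a median of 0.68 over 15 probe sets and death genes of 1.67 over 9. Of these 9, 5 belong to Bcl2l11, which sets the death median. By the brightest probe set of each death gene, Bcl2l11 stood at 1.72, Bak1 at -0.22 and Bid at -1.42. Probe sets of 1 gene read the same RNA and are no replicates. The fit takes 1 LPS change for both genotypes, and less RNA per cell cannot be told apart from fewer cells of a type. The 1 h count rested on few arrays: it became 3 higher and 1 lower once the knockout 1 h array was dropped, 2 and 0 once the wild-type 1 h array was, 5 and 0 without either 0 h array, and 10 and 1 without either 5 h array. It also rested on the expression filter: with all 22690 probe sets tested, 3 were called higher (Cflar 1424996_at and 1449317_at, and Mcl1 1416880_at) and 1 lower (Bid 1417045_at).

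After 5 h some members of each side were higher and some lower than at 0 h. Of the 24 probe sets 10 were called higher and 6 lower, where 20.8% of all fitted probe sets were called higher and 49.7% lower. The 10 were those of Cflar (4), Bak1 (2), Mcl1 (2), Birc3 (1) and Birc2 (1), and the 6 those of Bcl2l11 (4) and Mcl1 (2). Survival genes were called higher in 8 of 15 probe sets (2 lower; median 0.49) and death genes in 2 of 9 (4 lower, all of Bcl2l11; median 0.11), against a median of -0.48 for all fitted probe sets. The sides were not tested against each other, and the lower share of the death genes is near that of all fitted probe sets. The scale bears on the smaller changes: with arrays centred on their medians the median of all fitted probe sets was 0.28 and the members' counts were 18 higher and 3 lower, and after quantile normalization -0.12, with 12 and 6. Over all fitted probe sets, 29.4% of the 5 h calls were higher on the deposited scale, 63.0% after median centring and 44.0% after quantile normalization. At 1 h these shares were 53.6%, 70.9% and 63.6%. With all 22690 probe sets tested, without the expression filter, 8 member probe sets were called higher and 5 lower at 5 h. Without any 1 array the 5 h count of members lay between 7 and 10 higher and between 3 and 4 lower.

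Set against 1 h in place of 0 h, the 5 h arrays had 7 member probe sets called higher and 10 lower, where 18.9% and 41.8% of all fitted probe sets were. The 7 belong to Bid (2), Bak1 (2), Cflar (2) and Birc2 (1), and the 10 to Bcl2l11 (5), Mcl1 (4) and Bcl2l1 (1). In single pairs of arrays, with no test, 11 members were at least 2-fold higher and 2 lower at 1 h than at 0 h in knockout (5.4% and 4.9% of all fitted probe sets), and likewise 11 and 2 in wild type (5.79% and 3.99%). At 5 h these counts were 8 and 3 in knockout (13.8% and 34.1%) and 7 and 4 in wild type (14% and 31.4%).

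**Figure D1:**
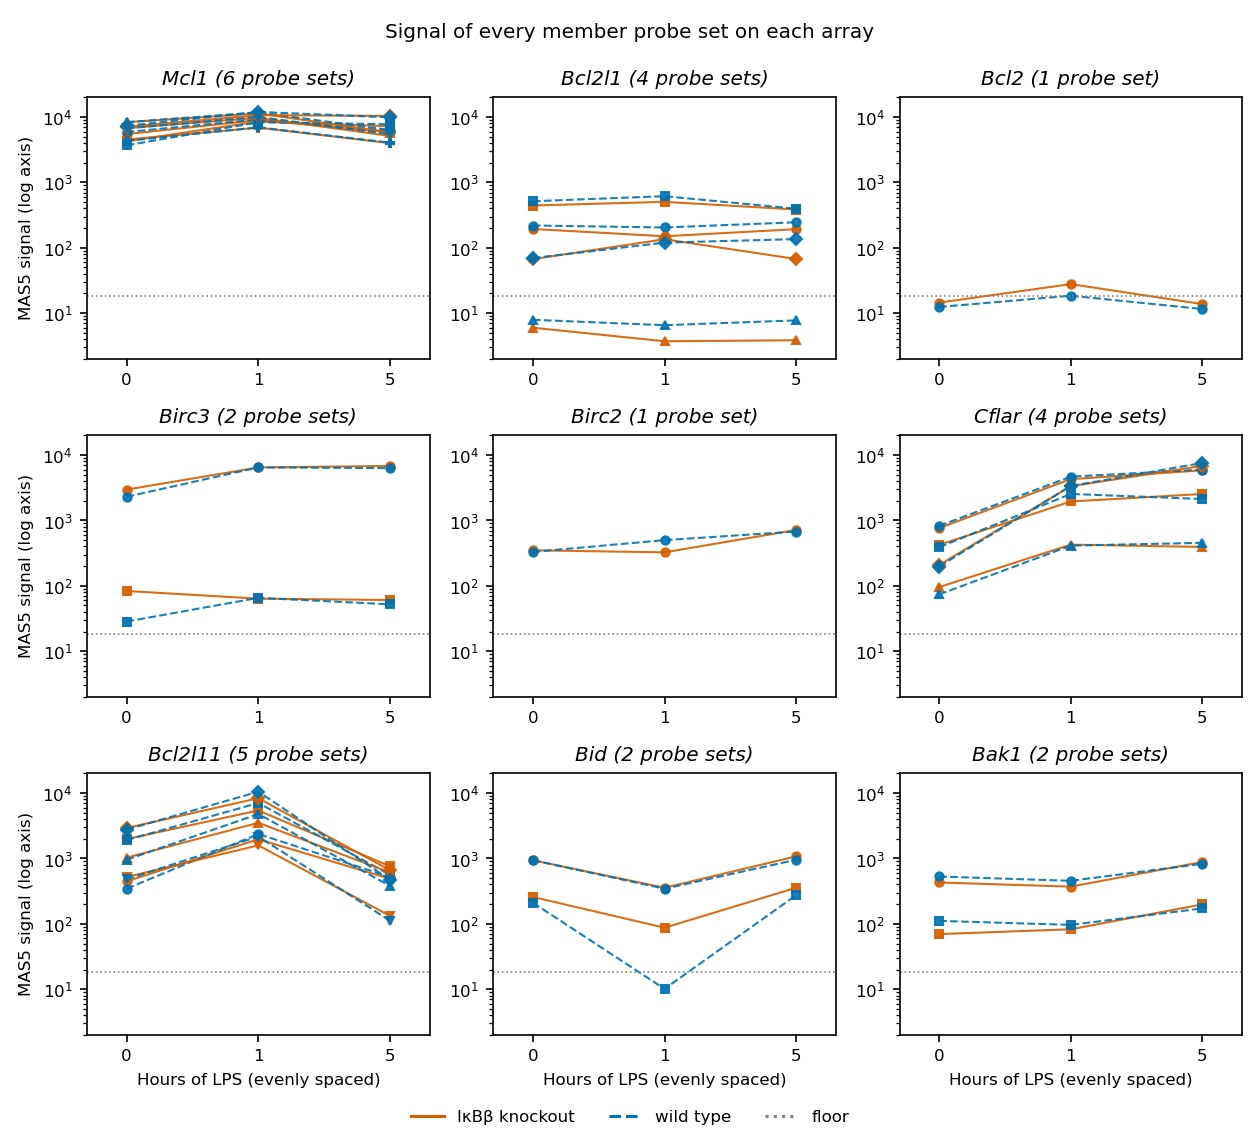
MAS5 signal (log axis) of all 27 probe sets against hours of LPS (0, 1 and 5, evenly spaced), 1 panel for each of the 9 genes, with knockout arrays as solid orange and wild-type arrays as dashed blue lines, 1 array per point. Cflar and Birc3 are higher at 1 h and 5 h, Bcl2l11 peaks at 1 h, Bid dips at 1 h, and Bcl2 stays near the floor of 18.2 (dotted).

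Mcl1, whose short-lived protein restrains BAK1 and BAX, was bright on every array, and all 6 of its probe sets were higher at 1 h than at 0 h on the arrays of both genotypes. Probe set 1416881_at read 4271, 8526 and 7223 in knockout and 3690, 8335 and 7761 in wild type, so that the arrays with LPS lay above both 0 h arrays. It rose by 1.09 on the log2 scale at 1 h (SE 0.13, adjusted p = 0.0203) and by 0.92 at 5 h (adjusted p = 0.00433). The other 3 calls at 1 h had log2 changes of 0.65 to 0.68 and adjusted p of 0.0357 to 0.0486, and the 2 that missed, both among the probe sets whose names end in x_at, had 0.47 and 0.55 with adjusted p = 0.0756 and 0.0537. Leaving out a 0 h or a 1 h array ended all 4 calls at 1 h, with adjusted p = 0.0947 to 0.268. Leaving out a 5 h array ended all but that of 1416881_at, with adjusted p = 0.0625 to 0.0664 for the other 3. Without the expression filter 1416881_at had adjusted p = 0.0787.

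At 5 h the Mcl1 probe sets went apart. Probe set 1448503_at, the brightest, read 7094, 10695 and 10420 in knockout and 7339, 11984 and 9917 in wild type, and was still up by 0.49 (SE 0.12, adjusted p = 0.0210). Probe set 1456243_x_at read 6766, 9728 and 5144 in knockout and 6723, 10069 and 5444 in wild type. There both 5 h arrays lay under both 0 h arrays, and the change was -0.35 (adjusted p = 0.0415). Likewise 1437527_x_at stood at -0.46 (adjusted p = 0.0199), while 1456381_x_at (-0.14) and 1416880_at (0.08) did not pass. The order of the 6 changes, from 0.76 down to -0.52 in knockout and from 1.07 down to -0.40 in wild type, was the same in both genotypes. Both falls depended on the scale. After quantile normalization 1456243_x_at stood at -0.65 and 1437527_x_at at -0.73, both called, while after median centring they stood at 0.41 (adjusted p = 0.0430) and 0.30 (adjusted p = 0.103), so that no Mcl1 probe set was then under its 0 h level. The calls at 5 h were also lost for 1456243_x_at whichever of the 6 arrays was left out, for 1437527_x_at whichever but the wild-type 5 h array was, and for 1448503_at without either 0 h array or the knockout 5 h array (0.41, adjusted p = 0.0732).

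Bcl2l1, the BCL-XL gene, passed no test at 1 h or 5 h against 0 h on the deposited scale. After median centring all 3 fitted probe sets were called higher at 5 h, by 0.84 (1420887_a_at, adjusted p = 0.00397), 0.47 (1420888_at, adjusted p = 0.0440) and 1.25 (1426191_a_at, adjusted p = 0.0134). After quantile normalization 1420887_a_at (0.73) and 1426191_a_at (1.18) were. The brightest Bcl2l1 probe set was 1420888_at. It read 444, 505 and 385 in knockout and 516, 616 and 396 in wild type, with no called genotype difference (-0.18, limma adjusted p = 0.622). Against 1 h it was down by 0.52 at 5 h (adjusted p = 0.0234), a change that was 0.07 after median centring. Of the 6 arrays only the knockout 5 h array could be left out with the call kept (adjusted p = 0.0625 to 0.145 without the others). Against 0 h this probe set stood at -0.29 at 5 h on the deposited scale. Probe set 1426191_a_at, whose letters a_at mark probes shared by transcripts of 1 gene, read 67.1, 135 and 67.3 in knockout and 69.6, 120 and 136 in wild type, so the genotypes parted at 5 h, and without the knockout 5 h array its change at 5 h was 1.02 (adjusted p = 0.0172). Probe set 1420887_a_at ranged from 150 to 194 in knockout and from 205 to 246 in wild type. Its genotype difference over all times was not called (limma adjusted p = 0.584). The probe set 1426050_at was under the floor on all 6 arrays, at most 5.99 in knockout and 7.92 in wild type.

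Bcl2, the founding member, was close to or under the floor in these macrophages. Its probe set read 14.5, 27.8 and 13.8 in knockout and 12.4, 18.5 and 11.6 in wild type, with 4 of the 6 signals under 18.2, the 25th percentile of all values. No change between these signals and no ordering among them is given here. They entered a fit only in the setting without the expression filter.

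Birc3, for cIAP2, was higher at both LPS times, by much the same factor. Probe set 1421392_a_at read 2966, 6469 and 6825 in knockout and 2302, 6487 and 6321 in wild type, and the 4 arrays with LPS lay together above both 0 h arrays. It rose 2.48-fold at 1 h (log2 1.31, SE 0.14, adjusted p = 0.0157) and 2.51-fold at 5 h (log2 1.33, adjusted p = 0.00192). The 5 h call held without any 1 array, while the 1 h call was lost without each of the 6, with adjusted p = 0.0510 to 0.118, and without the expression filter (adjusted p = 0.0783). The second Birc3 probe set, 1425223_at, was dim and was higher after LPS in wild type only: it read 83.4, 63.6 and 60.6 in knockout and 28.4, 65.4 and 52.1 in wild type.

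Birc2, for cIAP1, was later. It read 350, 325 and 716 in knockout and 330, 500 and 677 in wild type, so that only the 5 h arrays stood apart from 0 h in both genotypes. The change was 0.25 at 1 h (adjusted p = 0.486) and a rise of 1.03 at 5 h (SE 0.22, adjusted p = 0.0151), or 2.05-fold. The 5 h call was kept in 7 of 8 other settings of scaling, floor, filter or model. That call was lost without the knockout 5 h array (0.86, adjusted p = 0.0954) and without the wild-type 0 h array (0.86, adjusted p = 0.0799).

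Cflar had the largest rise of the members at both times. Probe set 1424996_at, the one with the highest mean, read 765, 4282 and 5850 in knockout and 825, 4673 and 6004 in wild type. Probe set 1449317_at read 208, 3342 and 6845 in knockout and 197, 3365 and 7586 in wild type. On both, every array with LPS was at least 5 times as bright as either 0 h array, and the genotypes overlapped closely. The first rose 5.63-fold at 1 h (log2 2.49, SE 0.11, adjusted p = 0.00283) and 7.46-fold at 5 h (log2 2.90, adjusted p = 0.000403). The second rose 16.6-fold at 1 h (log2 4.05, SE 0.12, adjusted p = 0.00181) and 35.6-fold at 5 h (log2 5.15, adjusted p = 0.000403), and between 1 h and 5 h by 1.10 (adjusted p = 0.00281). The other 2 Cflar probe sets, 1425686_at and 1425687_at, rose by 2.46 and 2.32 at 1 h and by 2.52 and 2.33 at 5 h, with 0.06 and 0.01 between these times. All 4 calls at 5 h held without any 1 array. At 1 h those of the first 2 did, while 1425686_at lost its call without the wild-type 1 h array (adjusted p = 0.0577) and 1425687_at without either 1 h array (adjusted p = 0.0810 when that of the knockout was dropped and 0.0792 when that of the wild type was). Without the expression filter both lost it (adjusted p = 0.0750 and 0.0705).

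Bcl2l11, for the BH3-only killer BIM, gave the sharpest pulse of the group: high at 1 h and, on 4 of 5 probe sets, below its starting level at 5 h. Probe set 1456005_a_at, the brightest, read 2924, 8372 and 659 in knockout and 2767, 10518 and 473 in wild type. Probe set 1435448_at read 1982, 5434 and 758 in knockout and 1910, 7065 and 564 in wild type. On both, the 3 times did not overlap. Probe set 1456005_a_at rose 3.30-fold at 1 h (log2 1.72, SE 0.22, adjusted p = 0.0239) and fell by 2.35 at 5 h against 0 h (adjusted p = 0.00148), which is 16.8-fold under 1 h (adjusted p = 0.000822). The 5 probe sets rose by 1.67 to 2.46 at 1 h and their 5 h levels stood at -2.10 to -4.07 against 1 h, and all 5 passed in both comparisons. The fall from 1 h to 5 h held on all 5 without any 1 array and under each other setting. The rises at 1 h were less steady: without either 1 h array none of the 5 passed (adjusted p = 0.0535 to 0.0766 when that of the knockout was dropped, 0.0721 to 0.119 when that of the wild type was), and without either 0 h array only 1426334_a_at did. Without the expression filter none of the 5 passed at 1 h (adjusted p = 0.0744 to 0.131).

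Against 0 h the 5 h levels of Bcl2l11 depended on the probe set. Probe set 1426334_a_at read 447, 1967 and 489 in knockout and 345, 2370 and 520 in wild type, so that it returned to about its starting level (0.36, adjusted p = 0.161). The others stood at -1.04 (1435449_at, adjusted p = 0.0326), -1.57, -2.04 and -2.35, and the order of the 5 was the same in both genotypes. After median centring 1435449_at stood at -0.28 (adjusted p = 0.422; 0.0740 after quantile normalization) and 1426334_a_at at 1.12 (adjusted p = 0.00315), while the other 3 stayed called lower under every setting and without any 1 array. The call of 1435449_at was also lost without either 0 h array (adjusted p = 0.106 each) and without the wild-type 5 h array (-0.62, adjusted p = 0.119). The 3 fitted B cell genes, Ighm, Cd79b and Cd22, were called lower at 5 h (2 after either other scaling). The summed signal of the 18 probe sets of that list was 6680, 4746 and 1001 in knockout and 6531, 4121 and 1052 in wild type. At 0 h and 1 h this sum was mostly Ighm, whose brightest probe sets read 3571 and 2563, and 2410 and 1589, in knockout. In wild type they read 3371 and 2308, and 2400 and 1216. Ms4a1 and Pax5 were near or under the floor, and Cd79a was under it except in wild type at 5 h (45.3). A part of B cells in the fall of Bcl2l11 was not tested. At 1 h Ighm stood at -0.51, Cd79b at -0.40 and Cd22 at -0.29, none of them called on the deposited scale. A part of B cells in the rise of Bcl2l11 at 1 h was not tested either.

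Bid, whose protein links caspase-8 to mitochondria, ran opposite to Bcl2l11. Probe set 1417045_at read 939, 356 and 1078 in knockout and 943, 345 and 957 in wild type, with both 1 h arrays far below the other 4. It fell by 1.42 at 1 h (SE 0.11, adjusted p = 0.00847), or 2.68-fold, was back at 5 h (0.11 against 0 h, adjusted p = 0.424) and stood 2.90-fold higher at 5 h than at 1 h (adjusted p = 0.00128). Probe set 1448560_at read 258, 87.3 and 357 in knockout and 211, 10.1 and 275 in wild type. Its wild-type 1 h signal was under the floor, so that fall is at least 3.53 on the log2 scale, beside 1.56 in knockout, and the test on the floored values gave adjusted p = 0.0663. Among the 6 arrays it passed without the knockout 1 h array only (adjusted p = 0.0398), and it also passed after median centring (-2.27, adjusted p = 0.0436) and with a mean-variance trend (adjusted p = 0.0124). The call of 1417045_at at 1 h was lost without either 0 h or either 1 h array (adjusted p = 0.0619 to 0.0939), and that between 1 h and 5 h held without any 1 array.

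Bak1, a pore-forming effector of the death side, did not pass at 1 h and was higher at 5 h. Probe set 1418991_at read 429, 371 and 885 in knockout and 530, 455 and 831 in wild type, and 1425716_s_at read 69.7, 82.5 and 199 in knockout and 111, 96.4 and 172 in wild type. Both 5 h arrays lay above the 4 earlier ones on each probe set. The rise at 5 h was 0.85 (SE 0.15, adjusted p = 0.00868) on the first and 1.07 (SE 0.24, adjusted p = 0.0163) on the second. Without the knockout 0 h array these were 0.74 on each (adjusted p = 0.0644 and 0.0699), and the second also lost its call without the knockout 5 h array (0.75, adjusted p = 0.0631). Of 7 other settings of scaling, floor, filter or model, 6 kept the 5 h call of 1425716_s_at. The letters s_at mark probes that can read more than 1 gene.

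**Figure D2:**
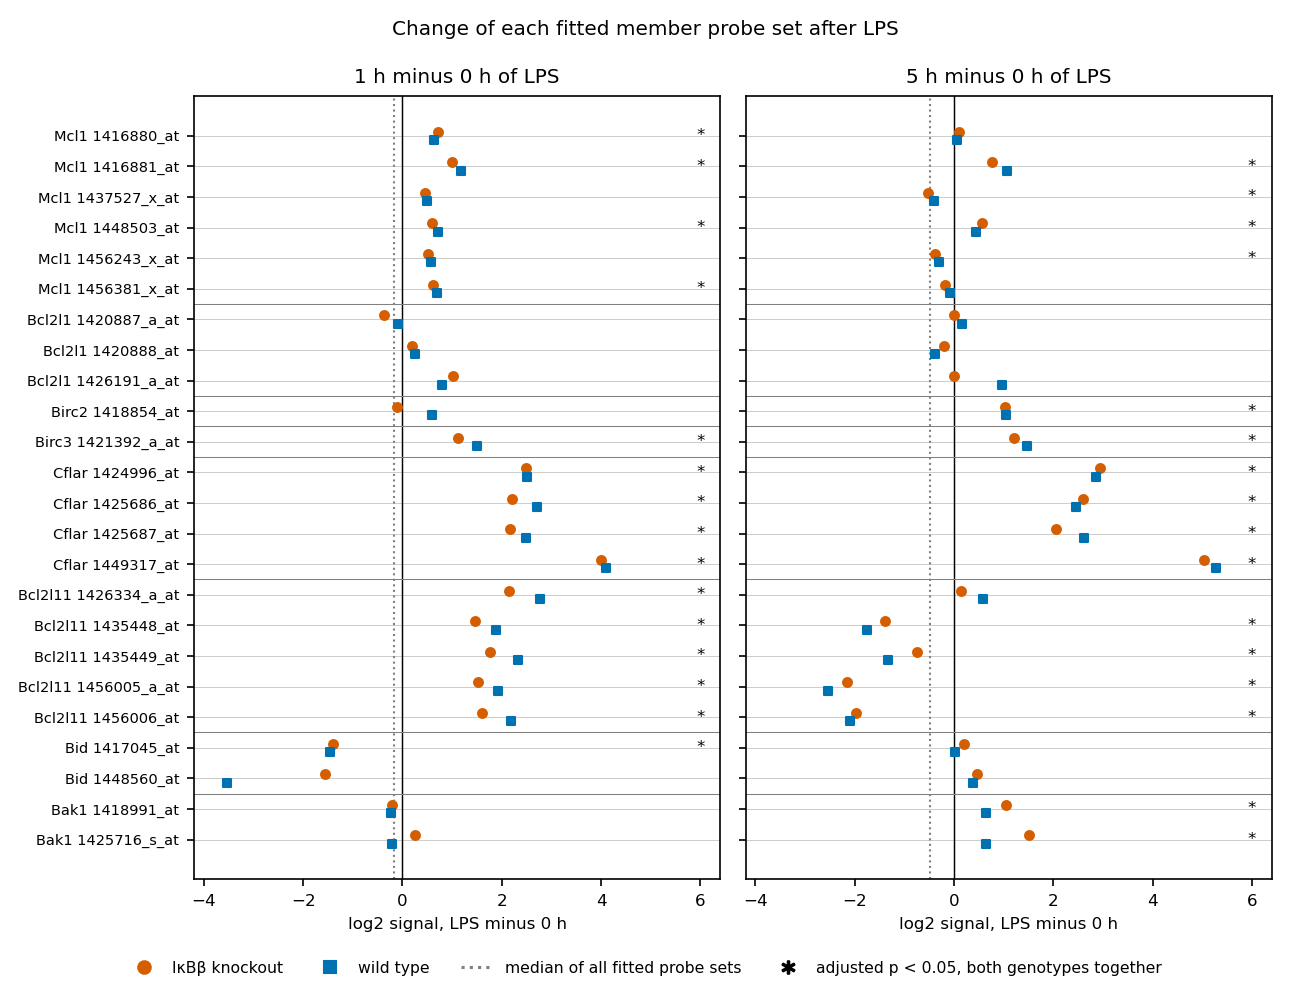
Log2 change of the 24 fitted probe sets at 1 h (left) and 5 h (right) against 0 h, 1 row each, in knockout (orange circles) and wild type (blue squares), with stars for a limma adjusted p under 0.05 over both genotypes and a dotted line at the median of all fitted probe sets (-0.17 and -0.48). Cflar lies far right in both panels, Bcl2l11 changes sides on 4 of its 5 probe sets, and the Mcl1 probe sets spread at 5 h.

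Of the 24 probe sets, 15 had 1 of 4 forms of time course, which were set out after the values were seen, and 9 had none of them. Higher at 1 h and at 5 h were 7 member probe sets, of Cflar, Birc3 and Mcl1, where 4.35% of all fitted probe sets were. Higher at 1 h and lower at 5 h than at 0 h were 4, all of Bcl2l11, beside 38 in all (0.289%). Lower at 1 h and then higher at 5 h than at 1 h was 1, of Bid, beside 1.08% of all. Not called at 1 h and higher at 5 h were 3, of Bak1 and Birc2, beside 16.1% of all. All 4 forms rest on the calls at 1 h, the last on their absence, and so on the arrays named above.

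Each gene was taken here by its brightest fitted probe set alone. For each member called at 1 h or 5 h on that probe set, the genes with the nearest time course over the 6 arrays were found. Nearness was the Euclidean distance between log2 signals, each profile centred on its own mean. Nearest to Cflar were Ell2 (distance 0.33), Peli1 (0.36), which encodes a ubiquitin ligase, and Zfp36 (0.45), for an mRNA decay factor. Nearest to Birc3 were Mul1 (0.15), Gabpb1 (0.18) and Kcnn4 (0.22), and to Mcl1 Cyth2 (0.19), Med27 (0.22) and Pde12 (0.25). Birc2 was nearest to Krit1 (0.29), Xrn1 (0.30) and Ptpn1 (0.35), and Bak1 to Ybx3 (0.21), Ece2 (0.21) and Dedd (0.23), a death effector domain gene. Nearest to Bcl2l11 were Bhlhe40 (0.68), Bmp2 (0.77) and Fam43a (0.78). Bhlhe40 read 138, 486 and 50.4 in knockout and 151, 498 and 35.0 in wild type. The distance grows with the size of the changes, so it is not comparable between members. For Bid they were Zfp777 (0.37), Tceanc2 (0.38) and 4921524J17Rik (0.43).

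Knockout and wild type were compared over the 3 times together. Of the 24 member probe sets 0 were called higher and 0 lower by limma, where 0% and 0.0305% of all fitted probe sets were, and 1 had an unadjusted p under 0.05, beside 8.43% of all fitted probe sets, so that this count is no result about the members. That one was 1420887_a_at of Bcl2l1, lower in knockout by 0.32 (95% interval -0.60 to -0.05, unadjusted p = 0.0304, adjusted p = 0.584) and lower at each of the 3 times. The intervals leave room for sizeable differences. For Cflar 1424996_at the difference was -0.09 (95% interval -0.33 to 0.15), for Mcl1 1448503_at -0.05 (-0.31 to 0.22), for Birc3 1421392_a_at 0.16 (-0.15 to 0.47), for Bcl2l11 1456005_a_at 0.08 (-0.42 to 0.57), for Bid 1417045_at 0.07 (-0.18 to 0.32) and for Birc2 -0.15 (-0.65 to 0.34). These intervals treat the difference as shared by the times, and they do not cover the spread between animals.

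At single times each comparison rests on 2 arrays and has no test. At 0 h, 0 of the 24 differed 2-fold in either direction, where 1.01% of all fitted probe sets were higher in knockout and 1.14% lower. At 1 h, 1 was higher (1.19% of all) and 0 lower (1.91%), and at 5 h, 0 higher (1.91%) and 1 lower (2.7%). The 1 higher at 1 h was Bid 1448560_at, by at least 2.26 since the wild-type signal was under the floor, while the brighter Bid probe set stood at 0.05. The 1 lower at 5 h was Bcl2l1 1426191_a_at at -1.01, while the other 2 fitted Bcl2l1 probe sets stood at -0.04 and -0.35. The SD of the difference over all fitted probe sets was 0.37, 0.42 and 0.48 at 0 h, 1 h and 5 h.

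**Figure D3:**
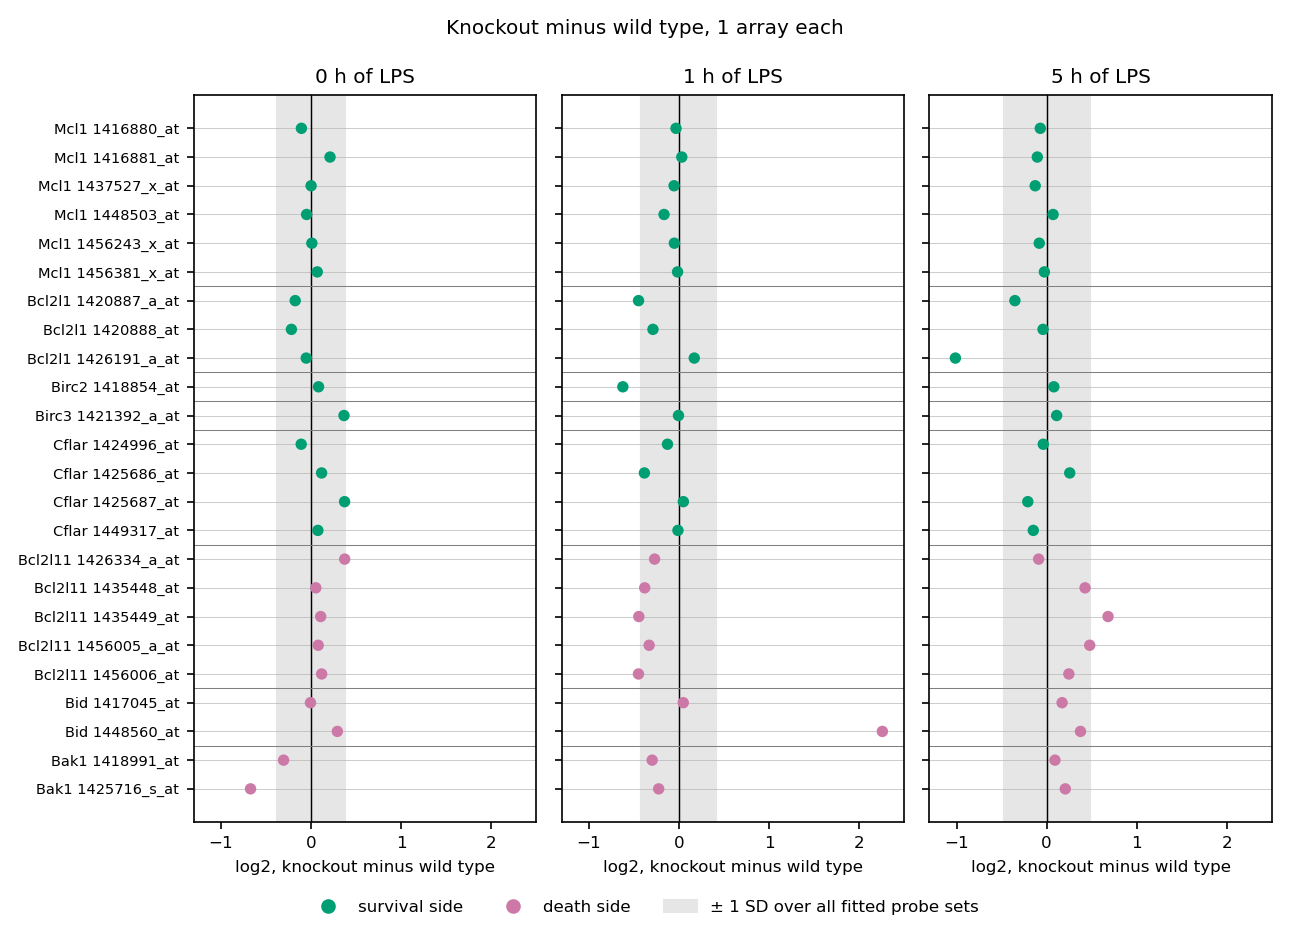
Log2 signal, knockout minus wild type, of the 24 fitted probe sets at 0 h, 1 h and 5 h of LPS (1 array per genotype and time), with survival genes in green, death genes in pink, and grey bands of 1 SD over all fitted probe sets. Most points lie in the bands, and the 5 Bcl2l11 points lie left of 0 at 1 h and, but for 1, right of it at 5 h.

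The 5 Bcl2l11 probe sets were all lower in knockout at 1 h. They stood at -0.27 to -0.45 in knockout against wild type, and at 5 h 4 of the 5 stood at 0.25 to 0.68, with 1426334_a_at at -0.09. The rise at 1 h was 1.45 to 2.14 in knockout and 1.89 to 2.78 in wild type, smaller in knockout on all 5 by 0.41 to 0.64. Among the 531 fitted probe sets that were at least 2-fold higher at 1 h in both genotypes, 23.0% had a rise smaller in knockout by 0.4 or more, and the median difference was -0.01. The 5 probe sets read 1 RNA on each array, so this is 1 observation for each time, and it was not tested. Birc2 likewise stood at -0.62 in knockout at 1 h, beside 0.08 at 0 h and at 5 h.

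The other genes of the pathway, each by its brightest fitted probe set, show where the members stand. The counts of each list can be set beside those of all 7510 genes with 1 probe set per gene. There 407 were called higher and 444 lower at 1 h, and 1463 higher and 4055 lower at 5 h. No list was tested against these counts. Of 8 other death-side BCL2 genes 1 was called higher and 0 lower at 1 h, and 1 higher and 2 lower at 5 h. Pmaip1, for the BH3-only protein NOXA, ran like Bcl2l11: it read 638, 2800 and 299 in knockout and 523, 1929 and 240 in wild type, rose by 2.01 at 1 h (adjusted p = 0.00520) and fell by 1.11 at 5 h (adjusted p = 0.00227). Bbc3, for PUMA, fell by 1.06 at 5 h (adjusted p = 0.00164), and Bnip3 rose by 1.24 (adjusted p = 0.00273). After median centring 2 of this list were called higher and 0 lower at 5 h. On the survival side 1 other gene was fitted, Bcl2l2, at 0.16 at 1 h and -0.04 at 5 h, neither called, and it was called higher at 5 h under both other scalings.

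Among 8 other inhibitors of apoptosis and their antagonists 0 were called at 1 h in either direction, and at 5 h 1 was called higher and 6 lower, against 2 and 3 after median centring and 1 and 2 after quantile normalization. Birc5, for survivin of dividing cells, fell by 2.52 at 5 h (adjusted p = 0.0161), as 3 of 4 fitted cell cycle genes were also called lower. The serine protease gene Htra2 fell by 1.59 (adjusted p = 0.00505), and Naip5, for a sensor of bacterial flagellin, also fell by 1.59 (adjusted p = 0.00240).

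All 11 genes of the apoptosome and caspase list were called at 5 h, 4 higher and 7 lower, where 1463 and 4055 of all 7510 genes were. The same list counts came after median centring and after quantile normalization. Cycs, for cytochrome c, rose by 2.25 (adjusted p = 0.000922), Casp12 by 2.03 and Apaf1, the scaffold of the apoptosome, by 1.63. Casp9, the caspase that the apoptosome activates, read 314, 127 and 44.2 in knockout and 327, 107 and 38.4 in wild type, and it fell by 1.46 at 1 h (adjusted p = 0.0112) and fell by 2.96 at 5 h (adjusted p = 0.000418). Cradd fell by 2.23 and Endog fell by 1.95 at 5 h, and Casp2 fell by 1.15 at 1 h (adjusted p = 0.0139). Casp8, the partner of cFLIP, named after its values were seen, read 2044, 2046 and 5162 in knockout and 1903, 1744 and 3899 in wild type, a rise of 1.19 at 5 h (adjusted p = 0.00205). At 1 h this list had 1 called higher and 2 lower.

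Of 14 death receptor and adaptor genes 5 were called higher and 0 lower at 1 h, and 8 higher and 4 lower at 5 h (9 and 2 after either other scaling). Tnf, Tnfaip3 (for the ubiquitin editor A20) and Traf1, an adaptor that binds cIAPs, rose by 6.61, 5.69 and 4.09 at 1 h and by 6.22, 5.74 and 5.65 at 5 h. The death receptor gene Tnfrsf21 fell by 3.80 and the kinase gene Dapk1 fell by 2.91 at 5 h. Among 12 regulators of the family 3 were called higher and 1 lower at 1 h, and 4 higher and 4 lower at 5 h (7 and 2 after median centring, 3 and 2 after quantile normalization). Mdm2, Pim1 and Cdkn1a rose by 2.83, 2.74 and 1.86 at 1 h. Foxo3, whose protein is known to activate Bcl2l11 in other cells, read 708, 375 and 105 in knockout and 735, 484 and 110 in wild type. It stood at -0.76 at 1 h (adjusted p = 0.0463) and fell by 2.75 at 5 h (adjusted p = 0.000447). The 1 h call of Foxo3 was lost after either other scaling, where 4 of this list were called higher and 0 lower at 1 h. Foxo1 (-1.45) and Akt1 (-1.17) were lower at 5 h too. A link between Foxo3 and the changes of Bcl2l11 was not tested.

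**Figure D4:**
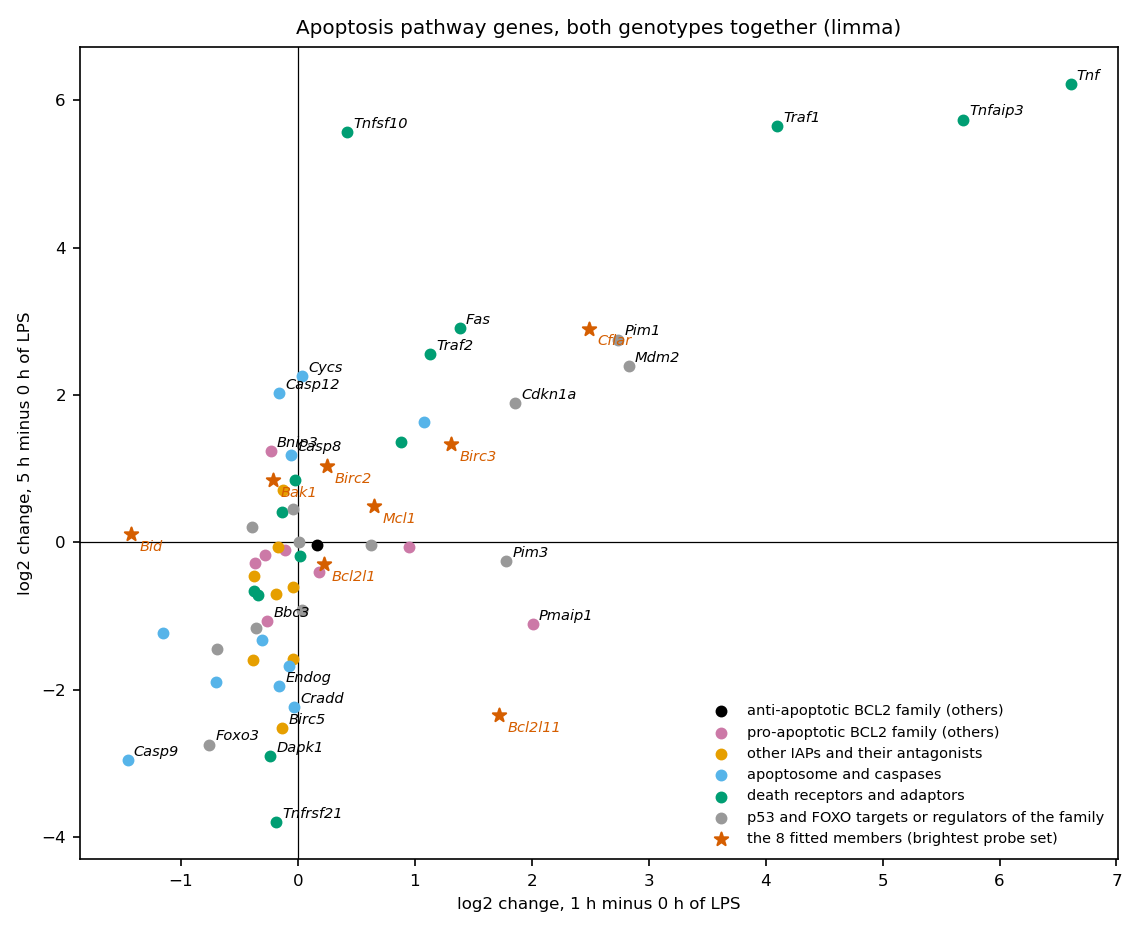
Log2 change at 1 h (x axis) against that at 5 h (y axis) of LPS over both genotypes, for the 8 fitted members by their brightest probe set (orange stars) and the genes of the 6 pathway lists (points, coloured by list). Bcl2l11 and Pmaip1 lie at the lower right, Cflar and Birc3 at the upper right with Tnfaip3 and Traf1, and Bid at the left.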

How the data were processed

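Expression was measured on 6 arrays, 1 for each genotype and time. The deposited values are intensity, MAS5 signals per probe set on a linear scale, per the submitters' processing notes; no source used here gives the MAS5 version or scaling target. Signals were used at the deposited scale, raised to 18.2 (the 25th percentile of all values) where lower, and log2 was taken. Gene symbols come from GEO's platform annotation, updated by gene ID: 20393 probe sets have 1 symbol, 691 several and 1606 none given. Probe sets above their array's median on at least 1 array (13135) were fitted with limma 3.58.1 in R 4.3.3, with time and genotype as additive terms, 2 residual degrees of freedom and a prior of 2.23. Calls use a Benjamini-Hochberg adjusted p under 0.05. Nothing ties the arrays to animals. With 1 array per group, the error behind the p-values is what the additive terms of time and genotype leave over. A difference between the genotypes in the LPS change counts as error there. This spread may also be technical, and the number of arrays limits the precision. The fit was tested on simulated data. Members and gene lists were chosen with earlier results of these data known. Alternatives were other scalings, floors, filters, 1 probe set per gene, other models and leaving out each array. Named were all member probe sets, up to 3 called genes each way per list and time that changed at least 2-fold in both genotypes, and the 3 nearest genes per member; markers, Casp8, the motifs and the promoters shown were chosen after their values were seen.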

Additional observations from a re-analysis of the deposited data

Results flagged for a closer look

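Bcl2l11 differed between the genotypes in opposite directions at different times, each by at least 1.2-fold on 2 arrays, and this was not tested. Knockout minus wild type at 1 h and at 5 h was -0.38 and 0.43 on the log2 scale for 1435448_at, -0.44 and 0.68 for 1435449_at, and -0.33 and 0.48 for 1456005_a_at. For 1426334_a_at it was 0.37 at 0 h and -0.27 at 1 h, but -0.09 at 5 h. For 1456006_at it was -0.45 at 1 h and 0.25 at 5 h, the second under 1.2-fold. Of all 13135 fitted probe sets, 6.85% had opposite signs at 1 h and 5 h by at least 1.2-fold each. In the direction seen here, lower in knockout at 1 h and higher at 5 h, the share was 3.63%.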

How the results depend on the processing

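No paired analysis was possible because replicate numbers pair nothing with 1 array per genotype and time. The fit does set the times against each other within a genotype, through its genotype term, and without that term the member counts were 15 higher and 1 lower at 1 h, 10 and 6 at 5 h, and 7 and 10 between them. Counts of member probe sets that moved by over 1.5 times were these. For 1 h against 0 h, the 14 higher were 3 without the expression filter and 4 with 1 probe set per gene, and the 1 lower was 2 after median centring and 2 with a mean-variance trend. For 5 h against 0 h, the 10 higher were 18 after median centring and 5 with 1 probe set per gene, and the 6 lower were 3 and 1. For 5 h against 1 h, the 7 higher were 12 after median centring, 4 without the filter and 4 with 1 probe set per gene, and the 10 lower were 5 after median centring and 2 with 1 probe set per gene. Only 8 probe sets are tested with 1 per gene. Leaving out 1 array gave 2 to 10 higher and 0 to 1 lower at 1 h, 7 to 10 higher and 3 to 4 lower at 5 h, and 4 to 5 higher and 8 to 10 lower between 1 h and 5 h. Median centring reversed Mcl1 1437527_x_at (0.30), 1456243_x_at (0.41), 1456381_x_at (0.63) and Bcl2l1 1420888_at (0.47) at 5 h against 0 h, and Mcl1 1416881_at (0.41) and Bcl2l1 1420888_at (0.0685) at 5 h against 1 h. Over all fitted probe sets the 1 h calls were 697 higher and 603 lower, against 147 and 87 without the filter and 1063 and 1246 with a trend, and the 5 h calls 2726 and 6532, against 5429 and 3188 after median centring. Between 1 h and 5 h they were 2486 and 5489, against 4973 and 2843 after median centring. Leaving out 1 array gave 108 to 480 higher and 10 to 305 lower at 1 h, and 1564 to 2170 higher and 3480 to 4880 lower between 1 h and 5 h. With 1 probe set per gene (7510 tested) the calls were 407 and 444 at 1 h, 1463 and 4055 at 5 h, and 1392 and 3413 between them. For knockout minus wild type 0 member probe sets were called under every setting run, and over all fitted probe sets 0 to 9 were called higher and 0 to 10 lower. With 1 array per group, signals near the floor limit what can be said of Bcl2, Bid 1448560_at and Bcl2l1 1426050_at.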
